A study of Mus musculus with 514 samples.

Results

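Mouse embryos lacking both the maternal and the embryonic supply of Esrrb were profiled at the 4-cell stage, and 4 such embryos, labelled mz_EKO, are described here. They were chosen by stage and genotype label alone and account for 4 of the 514 samples of the series as full-length libraries, with a UMI library of the same embryos beside each. A UMI is a molecular tag that marks the 5′ end of a transcript. The comparison group was 6 embryos labelled mz_DHet, which the file headers give as heterozygous for Esrrb and Nr5a2, so the controls carried 1 null allele of each gene. At the same stage the series holds 5 embryos labelled mz_NrKO, lacking Nr5a2, and 10 labelled mz_DKO, lacking both genes. Each library came from 1 whole embryo of the 4-cell stage (4C), taken on 22 May or 17 June. The Cre driver, the deleted exons, the mothers and the Nr5a2 alleles of the mz_EKO embryos are not given in the sources used here. Embryos of 1 group may share a mother, and the p-values below measure the spread between embryos.

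Esrrb is an orphan nuclear receptor of the oestrogen-related receptor (ERR) family, which acts without a known natural hormone and binds DNA at an extended core motif, TCAAGGTCA. Nr5a2, another orphan nuclear receptor, recognises nearly the same motif. In mouse Esrrb belongs to the network that maintains pluripotent stem cells, and it is needed later in the trophoblast lineage that forms the placenta. The question set by the design is what the 4-cell transcriptome looks like without Esrrb, and how that differs from the loss of Nr5a2 or of both.

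The targeted gene came first, as a check of the labels. Esrrb (ENSMUSG00000021255.17, chr12:86361117-86521628, plus strand, mm10) was measured as TPM, a transcript abundance corrected for gene length and scaled to the same total in every library, in the full-length reads. The 6 mz_DHet libraries held 16.4, 27.2, 23.1, 15.7, 25.6 and 8.17 TPM of Esrrb. The 4 mz_EKO libraries held 8.12, 15.4, 26.4 and 4.59 TPM, so the groups overlapped and the third knockout library came close to the highest control. In a linear model across all genes (limma) with collection date as a factor, the log2 difference in Esrrb was -0.22 ± 0.56 (SE; 95% interval -1.36 to 0.92; adjusted p = 0.974), and it was -0.63 without date. Left without mz_EKO replicate 1, the difference in Esrrb was 0.38, and without replicate 4 it was 0.06. An exact two-sided permutation test of the 4 against 6 values, without date, gave p = 0.243 over 210 splits.

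The UMI reads, which come from the 5′ end, gave a lower Esrrb signal in the same knockout embryos. The mz_DHet embryos had 13.7, 25.5, 23.3, 11.0, 8.90 and 0.751 TPM of Esrrb in UMI reads. The mz_EKO embryos had 4.10, 4.29, 3.63 and 0 TPM, below every control except the 22 May one. The log2 difference in Esrrb was -0.94 ± 0.79 (SE; 95% interval -2.56 to 0.67; limma adjusted p = 0.86) with date, and the exact permutation p without date was 0.0905 against a smallest possible p of 0.00952.

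The other genotypes showed the same division by read type. On 17 June, the 7 libraries with an Esrrb allele (mz_DHet and mz_NrKO) had 8.90 to 25.5 TPM of Esrrb in UMI reads. The 10 knockout libraries of that date (1 mz_EKO and 9 mz_DKO) had 0.335 to 4.88. Those ranges did not overlap, but the separation rests almost wholly on mz_DKO. On 22 May, with 3 mz_EKO and 1 mz_DKO, the 4 libraries of each kind spanned 0 to 20.1 and 0 to 4.29 TPM and did overlap. Averaged over both Nr5a2 backgrounds, with date, the UMI log2 difference in Esrrb was -1.56 ± 0.47 (SE; 95% interval -2.52 to -0.60; p = 0.00256 in limma, adjusted p = 0.886 over all genes). The full-length reads gave -0.62 ± 0.33 on the same scale (adjusted p = 0.998). This average treats mz_EKO and mz_DHet as alike at Nr5a2, although the Nr5a2 alleles of mz_EKO are not given. Where the deletion lies relative to either kind of read is not stated, so transcripts without the deleted part may still be counted.

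**Figure D1:**
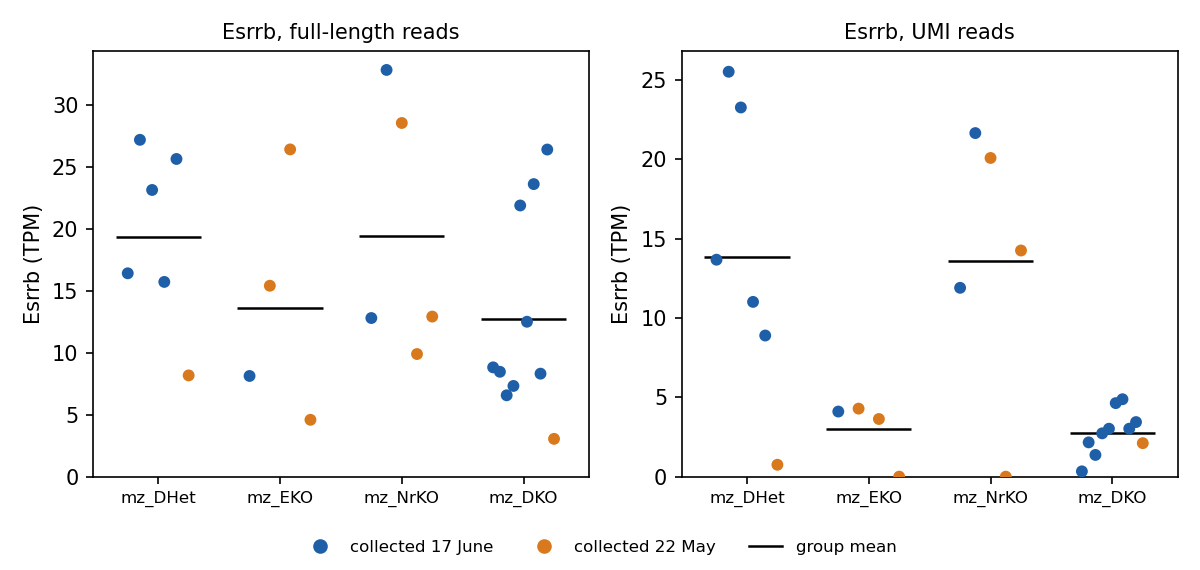
Esrrb in every 4-cell embryo, in TPM, by genotype, from full-length reads (left) and UMI reads (right). Points are libraries coloured by collection date and lines are group means. In full-length reads the mz_EKO values of 4.59 to 26.4 lie among the mz_DHet values, whereas in UMI reads they reach no higher than 4.29.

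Nr5a2 (ENSMUSG00000026398.14, chr1:136842571-136960448, minus strand), the partner gene of the study, stayed abundant in TPM in the mz_EKO embryos. The mz_DHet libraries held 551, 637, 543, 654, 883 and 487 TPM of Nr5a2 in full-length reads. The mz_EKO libraries held 700, 567.9, 652 and 345 TPM, within the control range apart from the lowest. The log2 difference was 0.11 ± 0.25 (SE; 95% interval -0.40 to 0.61), and -0.17 without date, so its direction rested on that factor. In UMI reads Nr5a2 differed by 0.02. Full-length Nr5a2 was as high in the labelled Nr5a2 knockouts, at 512 to 923 TPM in mz_NrKO and 428 to 1121 in mz_DKO. The Nr5a2 level therefore gives no check of those labels, and where that deletion lies is not stated.

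Collection date was unevenly spread over the groups. Of the mz_EKO embryos, 1 was taken on 17 June and 3 on 22 May. Among the mz_DHet embryos it was 5 on 17 June and 1 on 22 May, so within 22 May the contrast rests on a single control. Between 22 May and 17 June, 2100 of 13044 genes tested differed at an adjusted p under 0.05 in full-length reads (16.1%; 817 higher, 6.26%, and 1283 lower, 9.84%, on 22 May), and 879 of 10695 did in UMI reads (8.22%). The number of genes above 1 TPM was 14961 in the 17 June mz_EKO library and 12210 to 13476 in the 22 May ones, and 13783 to 15392 against 12568 in the controls. Gapdh, a glycolytic enzyme, stood at 84.95, 30.9, 68.6 and 7.74 TPM in the mz_EKO libraries, at 63.9 to 90.6 in the 17 June controls and at 29.2 in the 22 May control. Depth per library is unknown, since the deposited values are normalised.

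Transcripts of another cell type were present in some controls. The summed level of 16 macrophage markers was 5112 and 2233 TPM in mz_DHet replicates 1 and 2 and 3916 in mz_DKO replicate 3, against 4.34 to 14.0 in mz_EKO. Lyz2, the lysozyme of macrophages, was listed at 3534 and 1328 TPM in those controls and at 0 in all 4 mz_EKO libraries. Leaving out both controls left 0 genes called in either kind of read. The fit with them also called 0, so this does not show whether the macrophage transcripts mattered. The other marker lists overlapped between mz_EKO and mz_DHet, with summed full-length levels of 59.4 to 650 against 59.2 to 455 TPM for 24 cumulus and granulosa markers, 76.1 to 143 against 72.1 to 147 for 14 sperm markers and 153 to 280 against 70.8 to 222 for 14 oviduct markers. For 14 blood markers the ranges were 5.73 to 51.4 in mz_EKO and 0.888 to 3615 in mz_DHet.

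**Figure D2:**
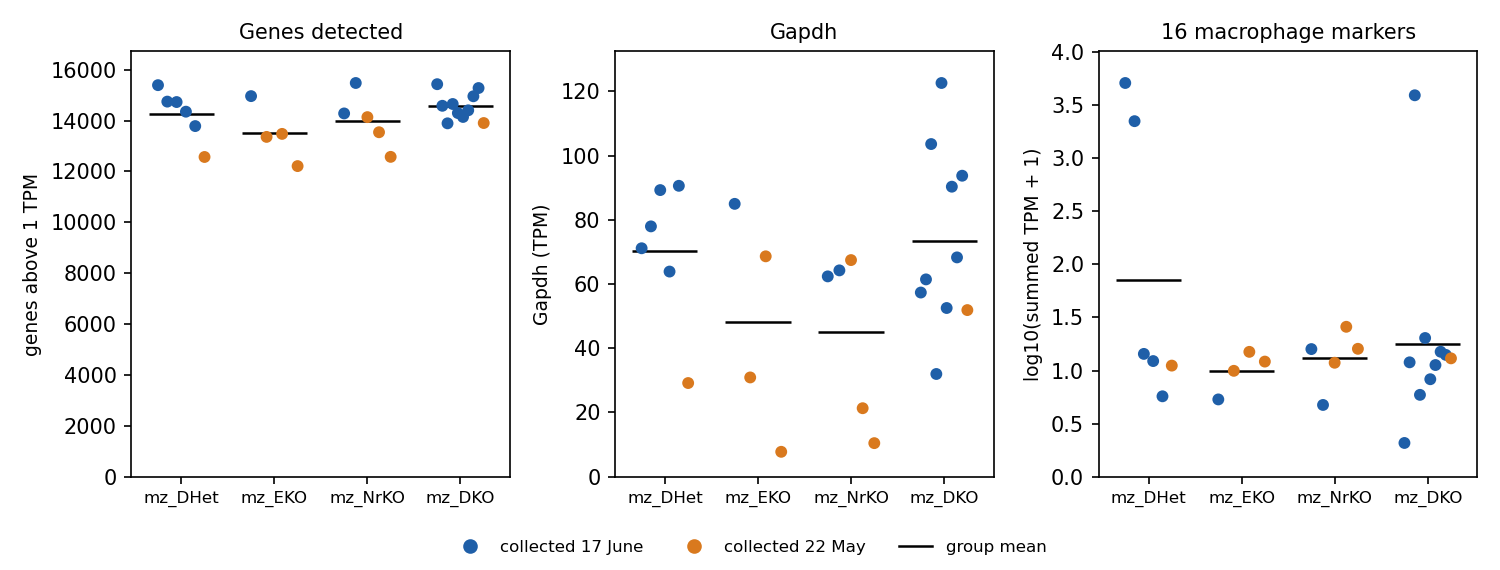
Library measures in full-length reads by genotype: genes above 1 TPM, Gapdh in TPM, and the summed TPM of 16 macrophage markers on a log10(sum + 1) scale. Points are embryos coloured by date and lines are group means. The 22 May control is the lowest mz_DHet library in the first 2 panels, and 2 mz_DHet and 1 mz_DKO libraries stand far above the rest in the third.

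In the model of the 4-cell libraries with date, no gene passed the test between mz_EKO and mz_DHet. With date, 0 of 13044 genes (0%) had a limma adjusted p under 0.05 in full-length reads, and 803 had an unadjusted p under 0.05, where 652 would be expected from 5% of the genes. The UMI reads of the same embryos gave 0 of 10695 (0%), with 700 genes at an unadjusted p under 0.05 and 535 expected. Without date, full-length reads called 1 gene, Eri1 (0.00767%), with 1053 genes at an unadjusted p under 0.05, and UMI reads called 0 with 812. The joint model of 3 stages described at the end, with date, called 4 of 17686 genes at 4C (0.0226%), named here after their values were seen. These were Gm19503 (2.56, adjusted p = 0.0261) and Gm50350 (1.97, adjusted p = 0.0261), higher in mz_EKO, and Gm8437 (-2.07, adjusted p = 0.0369) and Nlrc4 (-2.02, adjusted p = 0.0369), lower. The joint model fits the same date shifts at all stages. Nlrc4 was low, with means of 0.316 TPM in mz_EKO and 3.29 in mz_DHet, and was not tested in UMI reads. The median log2 difference over all genes was -0.00 with date and -0.06 without. For the median gene the unadjusted 95% interval reached 1.17 to either side on the log2 scale in full-length reads and 1.23 in UMI reads. A call after adjustment over all genes needed a larger change than that. Even Eri1, at -1.66 ± 0.30 (SE) with date, was not called. The 0 calls therefore do not exclude changes larger than these widths.

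Eri1 (ENSMUSG00000031527.7, chr8:35465253-35496196, minus strand), a 3′ exoribonuclease that acts on histone mRNA and small RNAs, was the gene called without date. Its full-length level was 93.1, 55.1, 101.6, 79.9, 101.2 and 77.4 TPM in mz_DHet. In mz_EKO it was 15.8, 24.8, 28.5 and 24.2 TPM, each below every control. The means were 23.3 ± 5.38 (SD, n = 4) in mz_EKO and 84.7 ± 17.8 (SD, n = 6) in mz_DHet. Eri1 was also lower than in mz_NrKO (51.4 to 100.9 TPM) and mz_DKO (49.6 to 119 TPM), so the 4 mz_EKO libraries lay under all 21 others of the stage, including the 10 that lacked Esrrb together with Nr5a2.

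For Eri1 the log2 difference from mz_DHet was -1.66 ± 0.30 (SE; 95% interval -2.28 to -1.05) with date, with p = 6.56e-06 and a limma adjusted p of 0.0855. Without date it was -1.82, with an adjusted p of 0.00671, but in a fit of the 4 mz_EKO and 6 mz_DHet libraries alone the same difference was not called (adjusted p = 0.264). Leaving out mz_DHet replicate 2, the lowest control, also brought Eri1 past the threshold with date in the model (-1.77, adjusted p = 0.0308). With any other single mz_EKO or mz_DHet library left out, Eri1 stayed lower but was not called. The difference was -1.61 without mz_DHet replicate 6 (adjusted p = 0.785) and -1.23 without mz_EKO replicate 1 (adjusted p = 0.258). Averaged over both Nr5a2 backgrounds, the Eri1 difference was -0.80 (adjusted p = 0.998). In UMI reads Eri1 was 29.1, 16.9, 23.1, 28.0, 29.4 and 32.8 TPM in mz_DHet. The mz_EKO embryos had 5.41, 16.1, 18.4 and 15.3 TPM in UMI reads, which overlapped the lowest control, for a difference of -1.18 (adjusted p = 0.559). The authors' deposited table, which compares the same groups, lists Eri1 at -1.96 on the log2 scale with an FDR of 4.72e-05 in full-length reads and at -1.51 with an FDR of 0.208 in UMI reads.

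Genes whose 4 mz_EKO values all lay on 1 side of all 6 mz_DHet values numbered 137 of 13044 in full-length reads (1.05%; 54 above, 0.414%, and 83 below, 0.636%). In UMI reads 45 of 10695 genes lay above (0.421%) and 62 below (0.58%), together 1%. For 4 against 6 values, the exact two-sided permutation test gives such a separation a p of 0.00952, which is close to both shares. In both kinds of read at once, 6 genes lay above and 11 below, of 9840 tested in both. The 12 of these with a mean of at least 10 TPM are described next, and none of them passed the adjusted threshold. Their separation is the rule that picked them and is no further result. The other 5, all below, were Apool, Irf2bp2, Sft2d3, Usp6nl and Vasn.

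The lower genes are given first. Tbca (ENSMUSG00000042043.6, chr13:94788910-94842922, plus strand), a chaperone that folds beta-tubulin, had 30.4, 15.8, 20.0, 34.5, 22.9 and 20.9 TPM in mz_DHet. It had 8.03, 6.35, 4.00 and 6.20 TPM in mz_EKO. The separation is how Tbca was picked, and its log2 difference was -1.62 ± 0.39 (SE; adjusted p = 0.473). In UMI reads Tbca went from 89.3 to 199 TPM in mz_DHet down to 45.8 to 78.5 in mz_EKO (-1.02). Pip4p1, a phosphoinositide phosphatase, was 114.5 to 220 TPM in mz_DHet and 78.9, 49.9, 42.7 and 99.8 in mz_EKO, a difference of -1.16 ± 0.34 (SE).

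Hus1, a subunit of the DNA damage checkpoint clamp, had a low level: 9.88 to 26.2 TPM in mz_DHet and 2.29 to 7.67 in mz_EKO, a difference of -1.67 ± 0.48 (SE) and -2.18 in UMI reads. Atp2b1, a calcium pump of the plasma membrane, was 21.1 to 51.7 against 2.52 to 11.2 TPM. Ndufaf6, an assembly factor of respiratory complex I, was 24.8 to 49.9 against 6.38 to 24.4 TPM, and the top knockout value nearly met the lowest control. Sycp1, a protein of the meiotic synaptonemal complex, was 37.7 to 85.9 TPM in mz_DHet and 36.5, 25.7, 26.0 and 0 in mz_EKO.

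Of the higher genes, B4galt3, a galactosyltransferase of the Golgi, had 113, 189, 196, 109, 129 and 220 TPM in mz_DHet. The mz_EKO libraries had 225, 345, 423 and 520 TPM, the lowest being the one from 17 June. The log2 difference in B4galt3 was 1.18 ± 0.39 (SE; adjusted p = 0.748) and 1.60 in UMI reads. The level was 231 to 507 TPM in mz_NrKO and 113 to 467 in mz_DKO, so the other knockouts reached as high. Tmem50b, a membrane protein, was 352 to 517 TPM in mz_DHet and 597, 618, 734 and 523 in mz_EKO, a difference of 0.68 ± 0.18 (SE). Mrpl22, of the mitochondrial ribosome, was 192 to 273 against 289 to 404 TPM, a difference of 0.55 ± 0.20 (SE).

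The remaining higher genes were smaller or more variable. Prorp, the nuclease subunit of mitochondrial RNase P, was 17.3 to 43.2 TPM in mz_DHet and 44.1 to 64.8 in mz_EKO. Zdhhc12, a palmitoyltransferase, was 11.3 to 39.5 against 40.5 to 56.8 TPM. Zkscan5, a zinc-finger protein, was 11.8 to 25.3 against 26.1, 28.6, 27.3 and 88.8 TPM, where a single library set the mean.

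**Figure D3:**
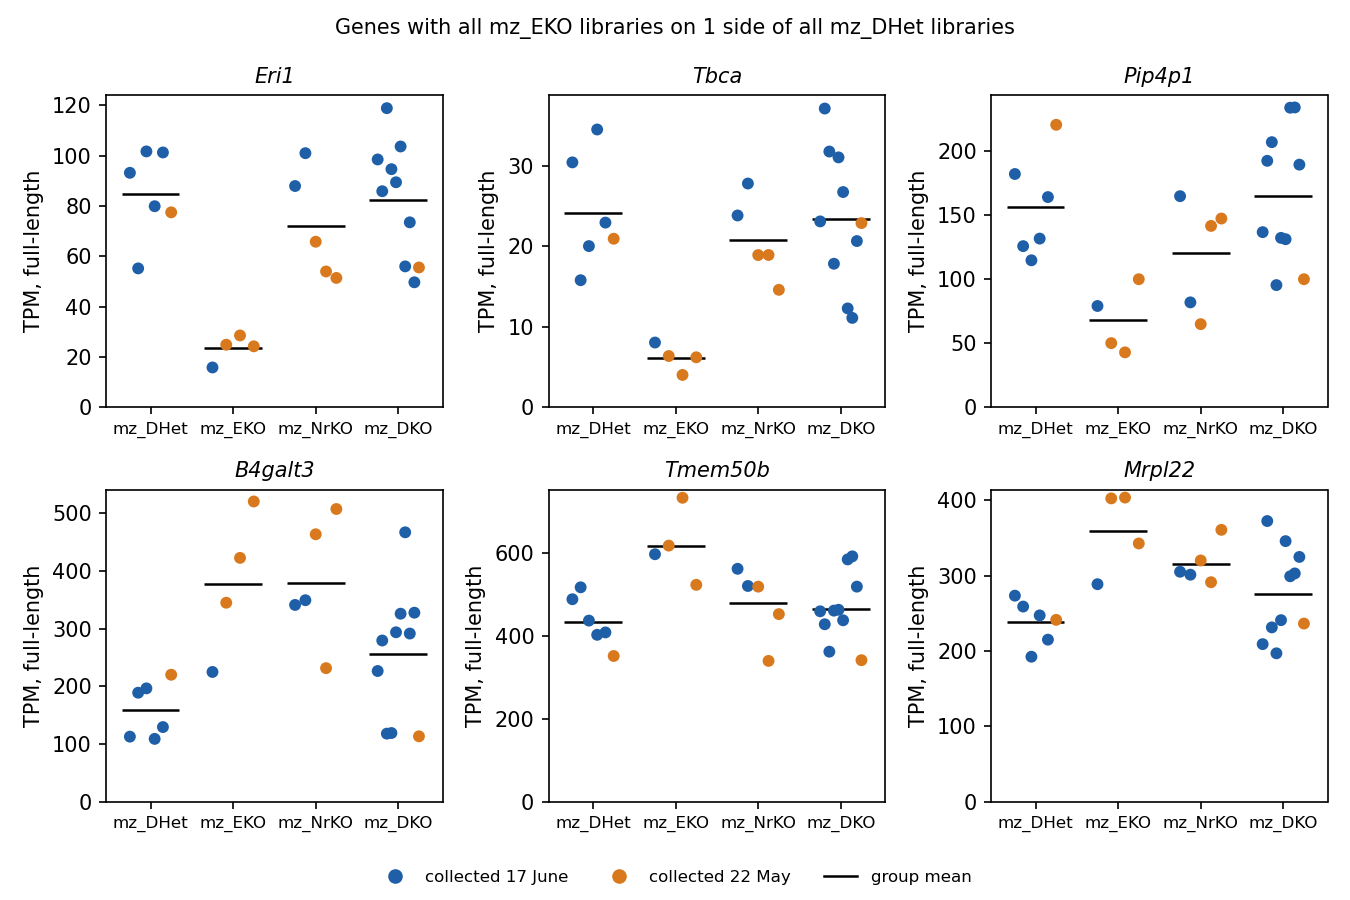
Full-length TPM of 6 genes by genotype in 4-cell embryos. Points are libraries coloured by date and lines are group means. The mz_EKO libraries of Eri1 (15.8 to 28.5 TPM) lie below all other libraries, while those of B4galt3, Tmem50b and Mrpl22 lie above mz_DHet and within or near the range of the other knockouts.

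The gene lists, drawn up for this stage and genotype, gave the same count: 0 members of any list passed the test, against 0% of all genes. At an unadjusted p under 0.05, 407 of all 13044 genes were higher and 396 lower. In UMI reads these were 340 and 360 of 10695. Of the ERR receptors and their coregulators, 10 of 15 were tested, with a median log2 difference of -0.10 with date and 0.10 without. Ncoa3, a coactivator that Esrrb recruits in stem cells, had 124 ± 33.2 TPM in mz_EKO and 93.5 ± 19.1 in mz_DHet (0.20 ± 0.27, SE), but was lower in UMI reads (-0.20). Among 15 other nuclear receptors the median was 0.06 with date and -0.26 without. Nr1h3, the liver X receptor alpha, was at 25.2, 257, 92.3 and 17.1 TPM in mz_EKO and 76.2 ± 20.5 in mz_DHet, a log2 difference of -0.78 ± 0.54 (SE) although the second library lay far above the controls.

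For 28 pluripotency factors the median log2 difference was 0.21 with date and 0.03 without, beside -0.30 for 22 May against 17 June. Lifr, the receptor of leukaemia inhibitory factor, was at 5.10 ± 1.35 TPM in mz_EKO and 1.81 ± 2.28 in mz_DHet, a difference of 2.09 ± 0.73 (SE). In trophectoderm genes, for the first epithelium of the embryo, the median over 18 was 0.70 with date and 0.18 without, beside -0.68 for the dates themselves. In UMI reads the median over 16 was 0.91 with date and 0.42 without, beside -0.83 for the dates. Members of this list lay on both sides. Tead1, a DNA-binding partner of the Hippo effector Yap, was at 1.61, 0.455, 0 and 2.42 TPM in mz_EKO and at 2.72 to 17.0 in mz_DHet, with no overlap. Tead2 was at 16.6 ± 11.0 TPM in mz_EKO and 7.00 ± 4.18 in mz_DHet (1.64 ± 0.77, SE).

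Primitive endoderm genes had a median of -0.42 over only 6 tested members, led by Gata4, a lineage transcription factor, at 153 ± 71.4 TPM in mz_EKO against 187 ± 44.9 in mz_DHet. In 41 genes of polarity, junctions and the Hippo pathway the median was 0.06. Tjp1, a scaffold of tight junctions, was at 22.5 ± 11.2 TPM in mz_EKO against 9.36 ± 4.90 in mz_DHet (1.23 ± 0.54, SE).

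Genes of the genome-activation burst at the 2-cell stage had a median of 0.00 over 38 tested. At an unadjusted p under 0.05, 4 were higher and 0 lower, beside 407 and 396 of all 13044 genes. In UMI reads 2 were higher and 2 lower of 28, beside 340 and 360 of 10695. Arg2, a mitochondrial arginase, was among the 4, at 25.4 ± 13.1 TPM in mz_EKO and 13.6 ± 8.27 in mz_DHet (2.02 ± 0.54, SE, with date; 1.00 without). Tdpoz3, of a gene family with near-identical copies whose reads may be split between them, was at 84.95 ± 38.0 against 29.3 ± 25.8 TPM, a difference of 2.86 in full-length reads and 0.50 in UMI reads. Oocyte and maternal genes had a median of -0.08 over 40, with 1 higher and 4 lower at that unadjusted p. Rfpl4, an oocyte ubiquitin ligase, was at 4.55 ± 1.81 TPM in mz_EKO and 13.2 ± 6.71 in mz_DHet (-1.38 ± 0.53, SE), while Zp3, an egg coat protein, was at 176 ± 49.0 and 112 ± 38.5 (0.77 ± 0.34, SE).

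ERR family receptors are known for their control of mitochondrial energy genes, and the medians of those lists lay near that of all genes. Over 77 oxidative phosphorylation genes the median log2 difference was -0.11 with date and 0.03 without. Cox7b, a cytochrome oxidase subunit, was at 40.1 ± 34.2 TPM in mz_EKO and 75.6 ± 26.6 in mz_DHet (-1.58 ± 0.65, SE). In 41 genes of the TCA cycle and fatty acid oxidation the median was 0.14 with date and -0.16 without. Acadm, the medium-chain acyl-CoA dehydrogenase, was at 228 ± 92.5 against 147 ± 44.0 TPM (0.95 ± 0.40, SE). Glycolysis had the median furthest above 0 of the metabolic lists, 0.38 over 20 genes with date and 0.25 without, but 0.09 in UMI reads. Ldhb, a lactate dehydrogenase subunit, was at 158 ± 40.4 TPM in mz_EKO and 80.3 ± 22.0 in mz_DHet (0.68 ± 0.36, SE, with date).

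The lists of growth and genome maintenance stayed close to the median of all genes in full-length reads. The median was 0.01 for 62 mitosis genes, 0.10 for 56 replication genes, -0.01 for 42 repair and telomere genes, -0.02 for 30 p53 and apoptosis genes and -0.10 for 53 ribosome biogenesis genes. In UMI reads the ribosome biogenesis median was -0.19 with date and -0.02 without. There 0 of the 53 were higher and 6 lower at an unadjusted p under 0.05, beside 340 and 360 of all 10695 genes. Lig1, the ligase that joins Okazaki fragments, was at 9.57 ± 5.88 TPM in mz_EKO and 21.9 ± 13.8 in mz_DHet (-1.44 ± 0.44, SE), where the 22 May control held 48.9. Pot1b, which caps telomeres, was at 16.7 ± 8.95 against 6.72 ± 4.57 TPM (2.12 ± 0.68, SE, with date; 1.40 without), and the 22 May control held 0. Stress genes had a median of -0.16 over 30, and cholesterol synthesis 0.21 over 27. In the latter Dhcr7, the last enzyme of the pathway, differed by 1.20 ± 0.33 (SE) with date and by 0.42 without.

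Developmental timing was read from controls of other stages, labelled z_NrHet at the 2-cell stage (L2C) and mz_DHet at the 8-cell stage (8C). The former label names an Nr5a2 heterozygote, so the control genotype changed along with the stage. The 817 tested genes that rose at least 4-fold from L2C to 8C had a median log2 difference of 0.13 with date and -0.20 without. Their median for 22 May against 17 June was -0.55. The 1770 that fell had -0.01, -0.03 and -0.00 in the same order. Genes called higher in mz_NrKO at the 8-cell stage, 1407 of them tested here, had a median of 0.05 in mz_EKO at 4C. The 1370 called lower there had 0.04. Within 10 Mb of Esrrb on chromosome 12, where sequence linked to the targeted allele could differ, 0 of 136 tested genes were called and the median was 0.01.

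**Figure D4:**
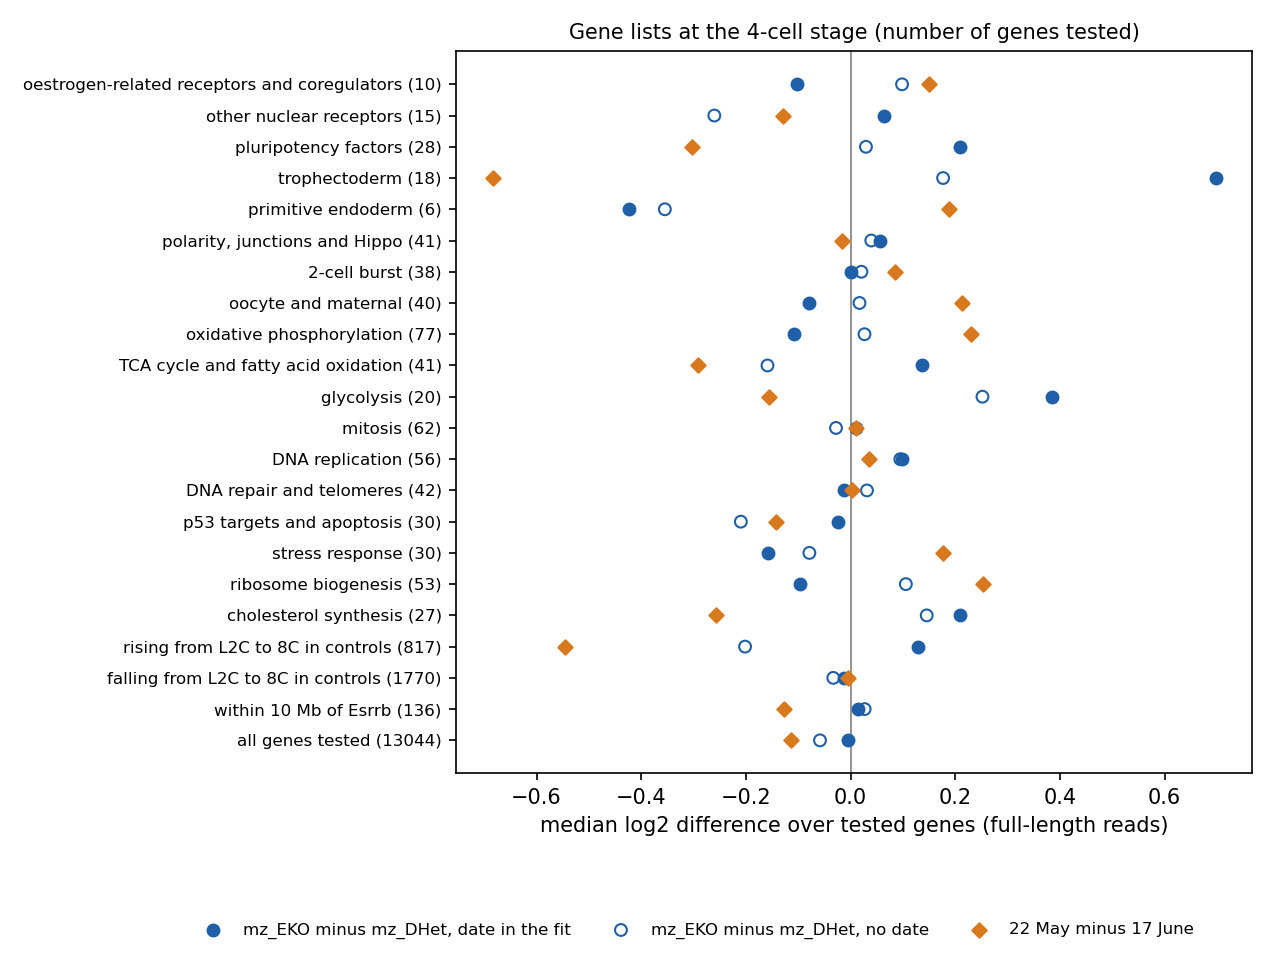
Median log2 difference of the pathway, lineage and stage lists in full-length reads, with the number of tested genes in brackets. Filled circles are mz_EKO minus mz_DHet with date in the model, open circles the same without date, and diamonds 22 May minus 17 June. With and without date the medians were 0.70 and 0.18 for trophectoderm and 0.13 and -0.20 for the genes rising from L2C to 8C, and each of these has a diamond well below 0.

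A direct test against the embryos lacking Nr5a2 found genes. Against mz_NrKO, 65 of 13044 genes differed at a limma adjusted p under 0.05 (0.498%; 44 higher, 0.337%, and 21 lower, 0.161%, in mz_EKO), and UMI reads of the same embryos gave 23 (0.215%; 19 higher and 4 lower). Of the 65, 60 were tested in UMI reads, 59 of these had the same direction there and 15 were called there too. Against mz_DKO, 91 genes differed (0.698%; 64 higher, 0.491%, and 27 lower, 0.207%), and 18 did in UMI reads (0.168%). Single libraries bore on both counts: against mz_NrKO 34 genes were called without mz_EKO replicate 2 and 84 without replicate 1, and against mz_DKO 44, 52 and 168 without replicates 2, 3 and 4. Without date the count against mz_DKO was 247. The comparisons with mz_DHet, mz_NrKO and mz_DKO all use the same mz_EKO libraries.

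Bhmt, which makes methionine from homocysteine with betaine as the methyl donor, had 116.9, 150, 272 and 48.6 TPM in mz_EKO. In mz_NrKO it had 45.8, 3.81, 2.82, 0 and 3.48 TPM, a log2 difference of 4.83 ± 0.74 (SE; adjusted p = 0.00490). The ranges of Bhmt did not overlap, although the 17 June library at 45.8 came close to the lowest mz_EKO value. Against mz_DKO, at 3.08 to 67.5 TPM, the difference was 4.22 (adjusted p = 0.00566; 3.26, adjusted p = 0.0518, in UMI reads). The mz_DHet libraries held 23.5 to 148 TPM of Bhmt, and mz_EKO differed from them by 1.89 ± 0.78 (SE; adjusted p = 0.797).

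Rflnb, an organiser of actin filaments, had 33.5, 71.0, 129 and 30.3 TPM in mz_EKO and 5.90, 4.73, 8.75, 0 and 2.35 in mz_NrKO. The difference was 3.78 ± 0.60 (SE; adjusted p = 0.00490), and 3.82 against mz_DKO (1.07 to 10.3 TPM). Casp6, an executioner caspase, had 67.9, 36.4, 129 and 36.9 TPM in mz_EKO and 4.04 to 11.3 in mz_NrKO, a difference of 3.03 ± 0.51 (SE). Proser2 had 64.9, 62.6, 66.7 and 76.3 TPM in mz_EKO and 4.65 to 9.61 in mz_NrKO, a difference of 3.13 ± 0.52 (SE). For Rflnb, Casp6 and Proser2 the mz_DHet means of 52.9, 36.3 and 58.2 TPM were on the side of mz_EKO. In UMI reads the call for Proser2 was lost (adjusted p = 0.0656).

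Tead4, the transcription factor that starts the trophectoderm programme, had 217, 295, 251 and 73.8 TPM in mz_EKO. It had 15.5 to 53.9 TPM in mz_NrKO and 4.97 to 50.6 in mz_DKO, with log2 differences of 2.90 ± 0.53 (SE; adjusted p = 0.00568) and 3.67 ± 0.53 (SE; adjusted p = 0.00108). The mean in mz_DHet was 249 TPM. In UMI reads the differences in Tead4 were 2.39 (adjusted p = 0.161) and 2.11 (adjusted p = 0.214). Slc25a41, a mitochondrial carrier, was at 58.3 ± 18.6 TPM in mz_EKO and 4.23 ± 3.75 in mz_NrKO (3.96 ± 0.80, SE; adjusted p = 0.0133). Its mean in mz_DKO was 2.66 TPM (5.20 ± 0.81, SE; adjusted p = 0.00249), and in mz_DHet 27.5 ± 16.3 TPM (1.96 ± 0.85, SE; adjusted p = 0.797).

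Further genes were picked after their values were seen. Igf2r, a receptor that clears insulin-like growth factor, had 92.6, 97.5, 97.6 and 115 TPM in mz_EKO and 13.3 to 48.8 in mz_NrKO (1.72 ± 0.31, SE; adjusted p = 0.00524), with a mean of 120 in mz_DHet. Tdgf1, a coreceptor for Nodal, had 55.6, 41.4, 44.4 and 6.63 TPM in mz_EKO and 0 to 1.74 in mz_NrKO (4.48 ± 0.85, SE; adjusted p = 0.00728). In UMI reads the calls against mz_NrKO were lost for Igf2r (adjusted p = 0.285) and Tdgf1 (adjusted p = 0.189). Tlk2, a chromatin kinase, was higher in full-length reads by 2.30 and differed by -0.06 in UMI reads, the only gene of the 60 to turn.

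Eri1 and Tbca were again low against the other knockouts. Eri1 differed by -1.53 ± 0.28 from mz_NrKO (SE; adjusted p = 0.00691) and by -1.58 ± 0.29 from mz_DKO (SE; adjusted p = 0.00566). Both calls were lost without mz_EKO replicate 1, at -1.20 (adjusted p = 0.0574) and -1.14 (adjusted p = 0.108), and in UMI reads, at -1.08 (adjusted p = 0.177) and -1.06 (adjusted p = 0.161). Tbca differed by -1.56 (adjusted p = 0.0437) and -1.52 (adjusted p = 0.0468), and each call was lost without mz_EKO replicate 1 (adjusted p = 0.0642 and 0.106) as well as without several other libraries. In UMI reads Tbca differed by -0.99 (adjusted p = 0.149) and -0.98 (adjusted p = 0.131).

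Chac1, Max and Ddx49, chosen after their values were seen, were also lower against both. Chac1, which degrades glutathione and is induced in the integrated stress response, had 1.67, 0, 4.74 and 0 TPM in mz_EKO and 4.91 to 16.7 in mz_DHet, a difference of -2.63 ± 0.66 (SE; adjusted p = 0.563). It differed by -3.56 from mz_NrKO (adjusted p = 0.00490) and by -3.27 from mz_DKO (adjusted p = 0.0102), and by -2.83 (adjusted p = 0.101) and -2.52 (adjusted p = 0.131) in UMI reads. Max, the dimer partner of Myc, was at 77.7 ± 17.7 TPM in mz_EKO, 131 ± 19.9 in mz_DHet and 168 ± 47.4 in mz_NrKO. It lies within 10 Mb of Esrrb and was the 1 gene of the 136 in that window called lower than in mz_NrKO, beside 21 of all 13044 genes (0.161%). A single gene gives no result for the window. Max differed from mz_NrKO by -1.16 (adjusted p = 0.0179; -1.12, adjusted p = 0.0552, without mz_EKO replicate 1; -1.08, adjusted p = 0.102, without date; -1.06, adjusted p = 0.202, in UMI reads). Against mz_DKO Max differed by -1.08 (adjusted p = 0.0316; -0.73, adjusted p = 0.113, without date; -0.77, adjusted p = 0.368, in UMI reads). Ddx49, an RNA helicase, was at 136 ± 47.2 TPM in mz_EKO, 213 ± 46.3 in mz_DHet and 248 ± 61.1 in mz_NrKO (-0.97, adjusted p = 0.0216; -0.95, adjusted p = 0.0574, without mz_EKO replicate 1; -0.90, adjusted p = 0.116, without date; -0.71, adjusted p = 0.497, in UMI reads). Against mz_DKO Ddx49 differed by -1.03 (adjusted p = 0.0152; -0.73, adjusted p = 0.0671, without date; -0.57, adjusted p = 0.636, in UMI reads).

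**Figure D5:**
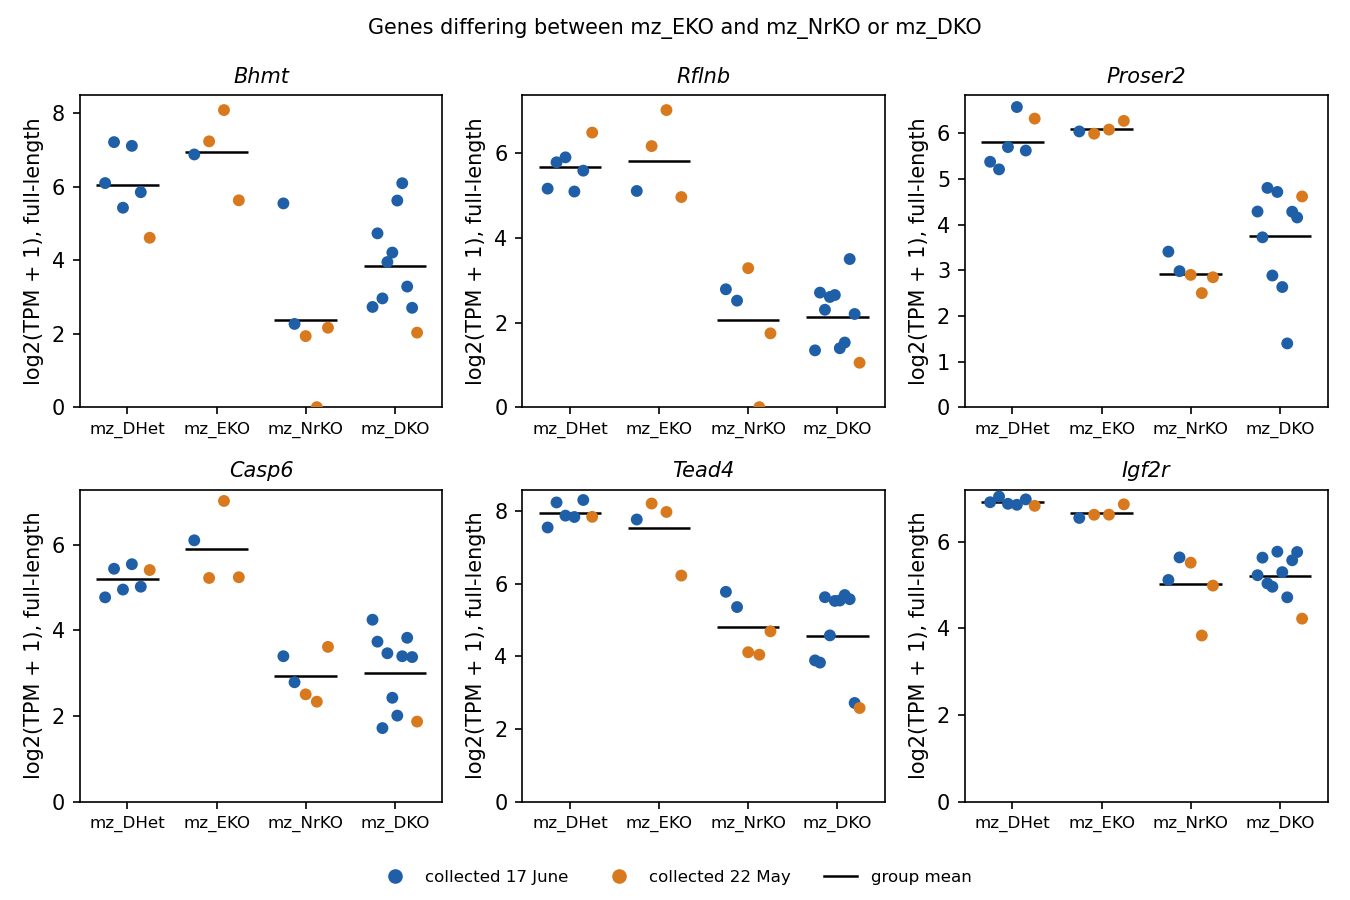
Full-length levels of 6 genes that differed between mz_EKO and mz_NrKO or mz_DKO, on a log2(TPM + 1) axis, by genotype. Points are libraries coloured by date and lines are group means. In all 6 panels the mz_EKO and mz_DHet means lie above those of mz_NrKO and mz_DKO.

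Genes called in mz_NrKO embryos of other stages were then read in the direct comparison. Of the 16 tested genes called lower in mz_NrKO at L2C, which was measured on other embryos, 5 (31.2%) were higher in mz_EKO than in mz_NrKO at 4C, beside 0.337% of all genes, with a median log2 difference of 1.30 beside -0.07 over all genes. Their median difference between mz_EKO and mz_DHet was -0.00. Among the 1370 called lower in mz_NrKO at 8C, 32 were higher (2.34%) and 3 lower (0.219%) in mz_EKO, beside 0.337% and 0.161% of all genes. Among the 1407 called higher there, 1 was higher (0.0711%) and 7 lower (0.498%). The 2-cell burst list had a median of -0.59 against mz_NrKO and -0.71 against mz_DKO, beside -0.07 and -0.06 over all genes. Of its 38 tested members 0 were called in either, beside 0.498% and 0.698% of all genes. Its median was 0.66 for mz_NrKO minus mz_DHet and 0.00 for mz_EKO minus mz_DHet.

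Promoters of the genes that were higher than in mz_NrKO were searched for the core motif AAGGTCA on both strands, from 250 bases before to 50 after each RefSeq start (GRCm38.p6). Of the 44 genes, 32 had a promoter entry, and 3 of them (9.38%), Bhmt, Sgk1 and Tlk2, held the core motif, beside 4% of the 8965 tested genes with an entry and 5.38% of 27025 symbols. The extended form TCAAGGTCA, which contains the shorter motif, was held by 2 of the 32, Bhmt and Sgk1, beside 0.379% of tested genes and 0.466% of symbols. So few genes give no result for either form, and Tlk2 differed from mz_NrKO by -0.06 in UMI reads. The matches are shown because Esrrb and Nr5a2 recognise nearly the same letters, with 29 bases around each, on the strand of the gene and the core motif in capitals (TGACCTT is AAGGTCA read from the other strand). The sequences are those of RefSeq.

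Bhmt, first site, chr13:93637814-93637842, minus strand: gaccccagatcAAGGTCAgaggcctgcta
Bhmt, next site, chr13:93637789-93637817, minus strand: gctattggacaAAGGTCAgtgtgcagacg
Sgk1, upstream promoter, chr10:21978598-21978626, plus strand: taggaccgggcTGACCTTgaacttttgaa
Sgk1, downstream promoter, chr10:21985991-21986019, plus strand: tctccgagttcAAGGTCAtccgggattaa
Tlk2, chr11:105178705-105178733, plus strand: gcttgaccctaTGACCTTttgtgtcagtt

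The Bhmt sites begin 73 and 48 bases before the RefSeq start, the upstream Sgk1 site 63 bases before its own start, and that of Tlk2 91 bases before. The first Bhmt site and both Sgk1 sites sit in the extended TCAAGGTCA form, while the next Bhmt site and the Tlk2 site do not. Sgk1, a kinase induced by serum and glucocorticoids, had 136, 121, 142 and 43.9 TPM in mz_EKO, a mean of 108.5 in mz_DHet and a mean of 14.0 in mz_NrKO (3.87 ± 0.67, SE; adjusted p = 0.00490; 3.21, adjusted p = 0.319, in UMI reads). Between mz_EKO and mz_DHet the 359 tested genes with the core motif had a median log2 difference of -0.03, beside -0.00 over all genes. Of the 359, 13 were higher and 12 lower at an unadjusted p under 0.05, beside 407 and 396 of all 13044 genes, and 0 were called.

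Whether Esrrb loss acted differently at other stages was tested as a difference of differences. Between the 8-cell and 4-cell stages 0 of 17686 genes (0%) passed, with 852 at an unadjusted p under 0.05 where 884 would be expected. At 8C, with 10 mz_EKO and 21 mz_DHet embryos, Esrrb differed by -1.56 ± 0.30 (SE; adjusted p = 0.0175), and at 4C in the same model by -0.23 ± 0.53 (SE). The difference between those was -1.33 ± 0.61 (SE; adjusted p = 1.00). For Eri1 the 8C effect was -0.00 ± 0.26 (SE) and the 4C effect -1.37 ± 0.46 (SE), a difference of 1.37 (unadjusted p = 0.0109, not called).

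Between L2C and 4C 4 genes passed (0.0226%; 2 in each direction, 0.0113% each), with 1305 at an unadjusted p under 0.05. Dates were unevenly spread at L2C too, where most mz_DHet embryos but no mz_EKO embryo were of 22 May. The model fits the same date shifts at all stages, so genotype and date cannot be fully told apart in this comparison. Naaa, a lysosomal amidase, went from 2.56 at 4C to -2.28 at L2C (difference -4.83 ± 0.97, SE; adjusted p = 0.0330). Ckmt1, the mitochondrial creatine kinase, went from 2.56 to -2.18 (difference -4.73 ± 0.97, SE; adjusted p = 0.0330). Nlrc4, an inflammasome sensor, was at 1.90 to 5.86 TPM in the 4C controls and at 0 to 0.770 in mz_EKO, and its effect went from -2.02 (called at 4C in this model, adjusted p = 0.0369) to 0.77 (adjusted p of the difference 0.0382). The fourth was Gm15507, a predicted gene. The count was 228 without date, 24 without mz_EKO replicate 1, 8 without replicate 4 and 0 without replicate 3 or with median-of-ratios scaling. Without mz_EKO replicate 3 the 4 genes had the same direction (adjusted p of 0.0989 for Ckmt1 and 0.0879 for Naaa), and without date the calls were lost for Naaa at -2.29 (adjusted p = 0.280) and for Ckmt1 at -2.97 (adjusted p = 0.0651). At 4C the fold of Naaa with date rests on the 22 May control at 1.95 TPM, against 11.3 to 43.5 in the 17 June controls and 11.7 to 35.7 in mz_EKO. For Ckmt1 that control was at 0 TPM, against 2.75 to 65.2 in the others and 13.1 to 42.0 in mz_EKO.

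By the rule of the study (above 10 TPM in a sample, 1.5-fold, FDR under 0.1), the authors' deposited table lists 84 genes between mz_EKO and mz_DHet in full-length reads, 39 higher and 45 lower. In 25 of the 84 a whole group is at 0, 63 of them passed the expression minimum used here, and 8 are macrophage markers. Lyz2 is the clearest of these, with an FDR of 3.2e-07 in the authors' deposited table. Here Lyz2 did not reach the expression minimum and was not tested. It was at 3534, 1328 and 2.58 TPM in 3 of the 6 controls and at 0 in the other 3 and in all 4 mz_EKO libraries. In UMI reads the authors' deposited table lists 12 genes by the same rule, 5 higher and 7 lower, of which 9 have a group at 0 and 3 are macrophage markers.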

How the data were processed

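Single embryos were sequenced by a protocol derived from FLASH-seq, with genotyping primers present during cDNA amplification, per the labels' protocols. Per the submitters' processing notes, cutadapt, STAR, RSEM and DESeq2 were used with mm10; versions are not given in the sources used here. The authors deposited TPM for full-length and UMI reads, with log2 fold changes and FDR-adjusted p-values of their own. Of the full-length library columns, 141 were not used here, and 65 rows without a gene name were left out.

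Here log2(TPM + 1) was fitted with limma 3.58.1 (trend; R 4.3.3) on genes reaching 5 TPM in 4 or more libraries, over all 25 4-cell libraries with genotype and date (20 residual degrees of freedom). Benjamini-Hochberg adjusted two-sided p under 0.05 was a call. Fold changes on this scale understate changes of low genes. Stages were compared in 1 model over L2C, 4C and 8C libraries of the same genotypes. The procedure was tested on simulated data. Named genes were the targeted pair, the genes called without date, genes with a mean of at least 10 TPM separated in both read types, up to 3 members of a list and up to 5 genes of a direct comparison by smallest p. A result that this rule names is not reported here. The members, the 22 lists and the macrophage list added later were chosen with earlier results of these data known. Embryo numbers in the titles gave no pairing: same-numbered deviations correlated at -0.02, 0.07, 0.05 and 0.00 in full-length reads.

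Alternatives were no date, single dates, a replicate block, pseudocounts, no filter, other scaling, array weights and leaving out libraries.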

Additional observations from a re-analysis of the deposited data

Results flagged for a closer look

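The difference between mz_EKO and mz_DHet was not the same at L2C and 4C for 4 genes in a direct test with date. The log2 difference of differences was -4.83 for Naaa, -4.73 for Ckmt1, 3.75 for Gm15507 and 2.79 for Nlrc4. Dates were unevenly spread over the 2 genotypes at both stages, so genotype and date cannot be fully told apart here.

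In 12 of 130 group values examined, 1 library lay far from the rest of its group. The rule flags about 1 in 20 among independent values of a uniform group. That rate does not apply here, since genes were picked from these data and each group mixes dates. Of the 12, 7 were in mz_DHet replicate 6, the only control of 22 May. It held 70.4 TPM of Epcam, an epithelial adhesion protein, against 169 to 205 in the others, and 29.2 of Gapdh against 63.9 to 90.6. Slc25a41 was at 2.30 TPM against 17.1 to 44.7, Sgk1 at 16.2 against 98.9 to 163, Tdgf1 at 0 against 12.7 to 47.1 and Tead2 at 0 against 5.83 to 12.4. Lig1 went the other way, at 48.9 TPM against 11.8 to 20.0.

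The mz_EKO replicate 4, also of 22 May and with the fewest genes above 1 TPM, held 4. These were Tdgf1 at 6.63 TPM against 41.4 to 55.6, Sgk1 at 43.9 against 121 to 142, Sycp1 at 0 against 25.7 to 36.5 and Zkscan5 at 88.8 against 26.1 to 28.6. The last was Cox7b in mz_DHet replicate 4, at 30.4 TPM against 70.4 to 109. The cause was not tested in any of them.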

How the results depend on the processing

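The count of genes called between mz_EKO and mz_DHet in full-length reads was 1 without date and 5 in the 17 June libraries alone (all lower), and it ranged from 0 to 1 when 1 library was left out (1 without mz_DHet replicate 2). In UMI reads it was 1 without the filter, 5 in the 22 May libraries alone (all higher), 2 in the 17 June libraries alone (both lower), and 0 to 2 with 1 library left out (2 without mz_EKO replicate 1). Single-date fits rest on 1 mz_EKO or 1 mz_DHet embryo. The replicate block, which does not pair embryos here, gave 0 calls between mz_EKO and mz_DHet in both kinds of read.

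Against mz_NrKO the count was 36 with the replicate block, 23 in UMI reads, and 34 to 84 with 1 library left out (34 without mz_EKO replicate 2, 84 without replicate 1). Against mz_DKO it was 247 without date, 5 with the replicate block, 37 without the filter, 18 in UMI reads, and 44 to 168 with 1 library left out (44 and 52 without mz_EKO replicates 2 and 3, 168 without replicate 4). The count that differed between 8C and 4C was 2 without date, 2 at a pseudocount of 0.1, 2 at 5, and 0 to 2 with 1 library left out. Between L2C and 4C it was 228 without date, 9 at a pseudocount of 0.1, 1 at 5, 0 with median-of-ratios scaling, and 0 to 24 with 1 library left out (24 without mz_EKO replicate 1, 0 without replicate 3). The cause was not tested.

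Esrrb in full-length reads turned to 0.57 in the 22 May libraries alone and ranged from -0.60 to 0.38 with 1 library left out (0.38 without mz_EKO replicate 1, 0.06 without replicate 4). Nr5a2 turned to -0.17 without date, in the full fit and in mz_DHet and mz_EKO alone, to -0.0314 averaged over both backgrounds, and ranged from -0.000872 to 0.26 with 1 library left out. Ncoa3 turned to -0.0258 in the 17 June libraries alone and to -0.20 in UMI reads, Ndufv2 to -0.16 in UMI reads, Srebf1 to 0.12 averaged over both backgrounds, and Tlk2 to -0.0598 against mz_NrKO and -0.70 against mz_DKO in UMI reads. Over 46 named genes, 1117 of 1127 other values against mz_DHet kept direction and side of the threshold. Most of these genes were picked from these data by separation or small p, and none was called in the main fit. Keeping direction and staying uncalled was therefore likely from the start and is no measure of robustness. Esrrb, which turned, is not among the 46. TPM hold no depth, which limits statements on low genes.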
